A study of Canis lupus familiaris with 109 samples.

Results

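DNA of dog whole blood was measured by targeted bisulfite sequencing, a method in which bisulfite turns unmethylated but not methylated cytosines into bases read as thymine, after which chosen regions are enriched with capture probes and sequenced. The positions described here are those that lie in dense stretches of the table and carry a low but not negligible methylation fraction. They were chosen by measured values. A position's density counts the positions of the table that lie up to 100 bp to either side of it, itself included. Positions 1 bp apart count separately. Members had a density of 16 or more and a mean fraction over the 95 libraries from 0.05 to 0.3. By this rule, 4781 of the 304191 listed positions were members, which was 1.57% of all positions and 7.35% of the 65047 dense ones.

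The study addresses how the dog blood methylome changes with age. The labels list 109 whole-blood samples of domestic dogs aged 0.134 to 15.5 years, and name no treatment. Of these, 94 were named for the main table and had a median age of 6.37 years, 6 were repeat captures, 1 was used beside the repeats, and 8 are marked as low in coverage. The library codes in the tables match no label, so none could be assigned to an age, sex or dog, and the 95 libraries of the main table, 1 more than the samples named for it, were treated as 1 set with no comparison by age. The values are fractions without read counts, so the depth behind each value is unknown and no counting interval can be given.

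In vertebrate genomes, methylation is found mainly at cytosines followed by guanine, called CpGs. Most of these are methylated, whereas short stretches rich in them, called CpG islands, are mostly unmethylated and often lie at gene promoters. Intermediate levels in such stretches can come from a mark present in some of the blood cell types, on a single allele, or in some cells of one type, and in several mammals a slow gain at CpG islands with age is known. In bulk blood the share of cells with a methylated site and the share of methylated alleles per cell cannot be told apart. Genes and sequences at these positions are not given, because the gene table at hand belongs to a different dog assembly. Positions are on CanFam3.1, the dog assembly named in the submitters' processing notes. They are the first coordinate the table lists, with an uncertainty of 1 bp.

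Most dense positions were nearly unmethylated, and the members were the largest class above that. Of the 65047 dense positions, 56413 (86.7%) had a mean fraction under 0.05, 1141 (1.75%) a mean over 0.3 and up to 0.7, and 2712 (4.17%) a mean over 0.7. Among the members, 2077 lay from 0.05 to under 0.1, 1359 from 0.1 to under 0.15, 689 from 0.15 to under 0.2, 384 from 0.2 to under 0.25 and 272 from 0.25 to 0.3. The median member had a mean fraction of 0.109, with quartiles of 0.08 and 0.159. The members are thus the falling tail above the unmethylated peak, with no separate peak of their own, and the limits cut through a continuous distribution. Just below the lower limit, 302 dense positions had a mean from 0.045 to under 0.05, and just above it 237 had a mean from 0.05 to under 0.055. At the upper limit, 21 positions lay from 0.295 to under 0.3 and 31 from 0.3 to under 0.305.

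**Figure D1:**
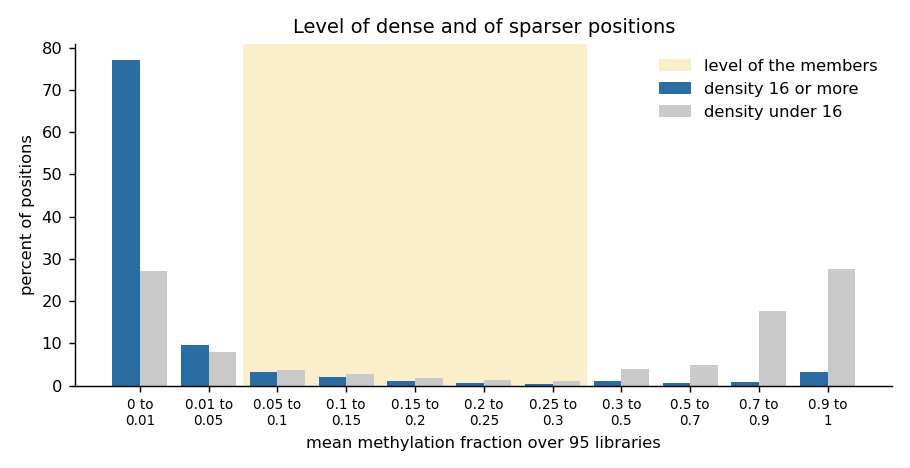
Share of positions (y axis, percent) by mean methylation fraction over 95 libraries (x axis, classes of unequal width) for the 65047 dense positions (blue) and for positions of density under 16 (grey). The shaded classes hold the members. In dense positions the first class, under 0.01, holds 77.02%, and shares fall through the shaded classes from 3.193% to 0.4182%.

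Low partial methylation was less frequent in most dense classes than in sparser ones. The share of positions with a mean from 0.05 to 0.3 was 9.23% at a density of 1 to 3, 12.5% at 8 to 11 and 10.4% at 12 to 15. In the dense classes it was 8.49% for a density of 16 to 19, 6.43% for 20 to 23 and 5.55% for 24 to 31. The class of 48 or more stood apart with 21.8%, and most of its members came from 1 locus on chromosome 7. Without that locus the share in this class was 8.52%, and that at a density of 32 to 47 was 3.76%. The density limit also cut a continuous series, with 856, 735, 658 and 537 positions of the members' level at densities of 14, 15, 16 and 17.

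Across libraries a typical member was low in most of them. The rule builds this in part, since reading 1.0 as 0.01 where the median is under 0.05 leaves out positions whose mean rests on a few values of 1.0. Its standard deviation (SD) across the 95 libraries had a median of 0.0952, with a 5th to 95th percentile of 0.0564 to 0.192. The median member was at 0 in 12 libraries and under 0.05 in 22. No library exceeded 0.5 at 2624 members (54.9%), and 1 to 3 libraries did so at 1715. At 98 members (2.05%), 10 or more libraries exceeded 0.5. At 293 members (6.13%) the median was under 0.05, so that most libraries lay below the lower limit set for the mean. Of all member values, 15.1% were 0, against 88.2% of the values at dense positions under 0.05, a difference that follows from the rule.

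Values of exactly 1.0 bear on several of these measures. The rule reads them as 0.01 at positions with a median under 0.05, and keeps them at all other members. At the members, as deposited, 0 values were 0.01, 10522 were 0.02 and 3174 were 1.0, whereas 0 were 0.98 or 0.99 and 3 were 0.97. What a 1.0 stands for at these positions is not given in the sources used here. After the change, 1.0 made up 0.646% of the member values, from 0% to 3.95% by library with the highest share in the library coded L4_A3, and 1400 members had at least 1 such value. Results that they change most are therefore also given with every 1.0 left out of the values and the members unchanged, a setting chosen after the data were seen. In that setting, 4725 of the 4781 members still had a mean of 0.05 or more. The members with no library over 0.5 then numbered 3883 (81.2%) in place of 2624, those with 1 to 3 such libraries 654 in place of 1715, those with 10 or more 77 in place of 98, and the median SD was 0.0747 in place of 0.0952. Values with more than 2 decimals, treated as filled in, made up 0.751% of member values, with 0.0209% in the median library and 23.9% in the library coded L1_A7.

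Members were unevenly spread over the 38 autosomes. On chromosome 38, 110 of 426 dense positions were members (25.8%), on chromosome 7, 604 of 2422 (24.9%), on chromosome 36, 128 of 688 (18.6%), and on chromosome 33, 2 of 478 (0.418%). Most members of chromosome 38 lay close together, in the clusters of 62 and 32 members that start at 21094135 and 21107482. On chromosome 36, most members lay in clusters that start from 19907413 to 19980486. Chromosome 7 owed its place to a single locus, without which 95 members were left and the share was 5.13%. Outside that locus, members were not more frequent than other dense positions near the last listed position of a chromosome, and the starts were not examined. Within 1 Mb of that position lay 0.538% of these members and 1.17% of the dense positions.

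Members lay in runs. Joining members with gaps of up to 100 bp gave 577 clusters, and 291 clusters of 5 or more members held 4155 of them (86.9%). There were 162 clusters of 10 or more members, 45 of 20 or more and 12 of 40 or more, whereas 105 members stood alone. Clusters of 5 or more had a median length of 91 bp, from 9 to 717 bp. In their spans a median of 80% of the listed positions were members, and 59 spans held members only. Runs among positions of lower density were not examined. The density limit alone brings members close together, and neighbouring members can share sequencing reads, so members of a cluster are not independent.

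The nearest surroundings of the members were mostly low, and those further away higher. The listed positions within 100 bp of a member that were not members themselves had a median mean fraction of 0.0475 over the 4483 members that had any, and 50.7% of these neighbourhoods were under 0.05. Beyond 100 and up to 500 bp the median was 0.0879, and beyond that up to 2000 bp it was 0.144, where 17.1% were over 0.5. Around dense positions under 0.05 the same measure, which there includes positions of their own class, was 0.00234, 0.00269 and 0.0613 in the same 3 ranges, and in the last of them 21.3% were over 0.5. The rule sets much of this difference close by, since it removes dense neighbours of 0.05 to 0.3 around members and keeps the unmethylated class around its own positions.

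Few clusters sat on the border between an unmethylated and a highly methylated stretch. Each flank was the mean of the nearest 3 to 5 non-member positions within 500 bp, called low under 0.05 and high over 0.5. Of the 182 clusters of 5 or more members with both flanks measured, 47 had both low, 60 had one low and one in between, called middle, and 61 had both middle. A high flank lay beside a middle one in 8 clusters and beside a low one in 6, and 0 clusters had both flanks high.

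The largest locus, members joined over gaps of up to 5000 bp, was a block of 509 members (10.7% of all) at the end of the listed positions of chromosome 7. It ran from 80967041 to 80974342, which is 7302 bp, and ended 50 bp before the last listed position of that chromosome, 80974392. The second largest locus had 67 members. The block's span held 576 listed positions, of which 47 had a mean under 0.05 and 13 a mean over 0.3, with the highest at 0.431. It was also the densest ground among the members. Of the 395 members with a density of 48 or more, 267 lay in the block, whose median density was 48 against 20 for members outside it. Density depends on which positions were captured and listed as well as on the sequence, and these were not told apart here. In the block, 168 pairs of members lay 1 bp apart, and each position of a pair counts towards the density.

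The block's members fell into 5 clusters of 135, 111, 93, 91 and 79 members. The plot of the block along its length shows that most of the positions over 0.3 lay in the second cluster from the start and that a stretch without listed positions separates the first 3 clusters from the last 2. The largest cluster, 80969175 to 80969756, had a mean per library of 0.0384 in the lowest library, 0.138 in the median and 0.254 in the highest. The cluster at 80968015 to 80968731 ran higher, at 0.0575, 0.17 and 0.359. That at 80973940 to 80974342 had 0.0667, 0.151 and 0.348, and without the values of 1.0 its lowest library had 0.0389. The remaining 2, at 80967041 to 80967476 and 80973496 to 80973726, had medians of 0.128 each. Without the values of 1.0, these medians were 0.123 and 0.0997. Those of the clusters of 135, 111 and 93 members were then 0.113, 0.168 and 0.143.

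**Figure D2:**
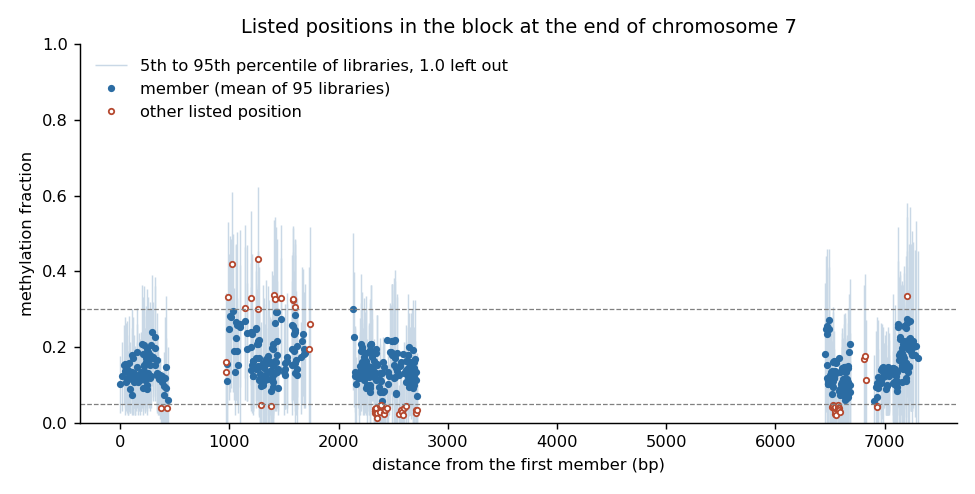
Mean methylation fraction over 95 libraries (y axis) of each listed position in the block at the end of chromosome 7, against the distance from its first member (x axis, bp). Filled points are the 509 members and open points the other listed positions. Pale lines run from the 5th to the 95th percentile of libraries with values of 1.0 left out. Dashed lines mark 0.05 and 0.3, the limits of the members' means. The means keep values of 1.0 as the rule does, so some points lie above their line. At 2441 bp the mean was 0.2182 and the 95th percentile 0.1115.

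The level of the block differed between libraries, and its highest library was not the highest over the other members. Over the block, the library mean was 0.0754 in the lowest library (coded L4_A15), 0.139 in the median and 0.289 in the highest (L2_A19), a 3.83-fold range. Over the 4272 members outside it, the lowest was 0.0866 (L6_A1), the median 0.123 and the highest 0.164 (L2_A13), a 1.89-fold range. With every 1.0 left out, the lowest library over the block became L4_A1 at 0.0433, the median 0.133 and the highest, again L2_A19, 0.289, a 6.67-fold range, while the range outside it was 1.9-fold. The values of 1.0 were more frequent in the block, at 1.67% against 0.523% of values outside it. In the block 13 libraries were over 0.2 in both settings, while 5 were under 0.1 with the values of 1.0 and 28 without them. The library L2_A19 was the highest in 4 of the 5 clusters in both settings. That library was unremarkable outside the block, at 0.129, and L2_A13, the highest outside it, had 0.151 in the block. A mean over fewer and closer positions has more room to vary than one over 4272 spread positions, so the wider range is a description and was not tested. With the values of 1.0 kept, several other single loci varied more, and others less. The SD across libraries was then 0.0407 over the block and 0.0432 over the locus of 67 members on chromosome 1. It was 0.0242 over that of 62 members on chromosome 28 and 0.0564 over that of 62 members on chromosome 38. Over that of 48 members on chromosome 12 it was 0.102. Without the values of 1.0, the 5 clusters of the block had SDs of 0.0445 to 0.0733. The loci on chromosomes 1, 28 and 38 then had 0.0525, 0.0212 and 0.0564. An SD over the whole block was not taken in that setting, so its rank there is not known.

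Within the block, the 5 cluster means moved together across libraries, with Pearson correlations of 0.363 to 0.804 over the 10 pairs and a median of 0.578. With every 1.0 left out they were 0.594 to 0.948, with a median of 0.813. Correlation reached across the stretch without listed positions, at 0.766 between the clusters starting at 80968015 and 80973940. The 5 means come from the same libraries and share their depth and batch, so these correlations are given without a test. Between the block and the members outside it, the relation over the 95 libraries did not pass the test, with a Pearson r of 0.133 (adjusted p = 0.264) and a Spearman rho of 0.142 (adjusted p = 0.225) in a two-sided permutation test adjusted over 4 relations. Within the 10 sets of libraries that share a code prefix (8 to 11 libraries each), this r ranged from -0.659 to 0.81, and without the 2 libraries farthest from the median it was 0.132. The same r was 0.582 in the 16 libraries whose code has A1, A3 or A4 as second element and -0.0276 in the other 79. The difference between these sets was not tested.

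**Figure D3:**
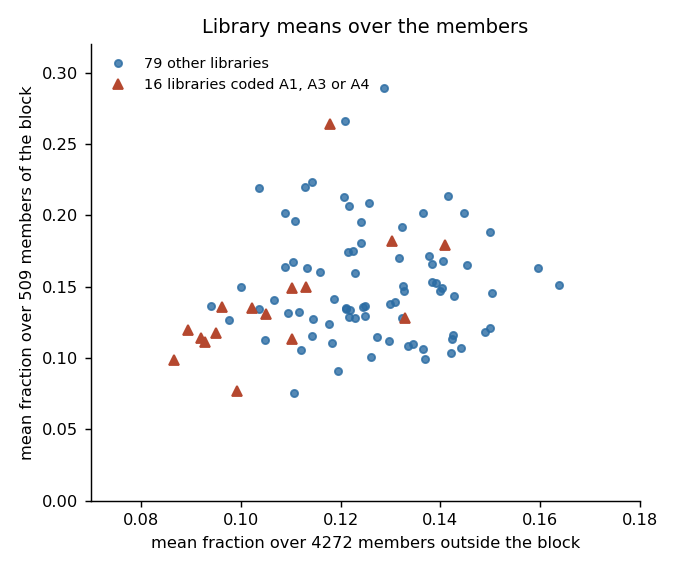
Mean methylation fraction of each of the 95 libraries over the 509 members of the block (y axis) against its mean over the 4272 members outside it (x axis). Triangles are the 16 libraries whose code has A1, A3 or A4 as second element. Block means spread from 0.0754 to 0.289 with no clear trend along the x axis over all 95 libraries (r of 0.582 among the triangles). On the x axis, 7 of the 10 lowest libraries are triangles.

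The 16 libraries whose code has A1, A3 or A4 as second element sat low over the members outside the block, at 0.0866 to 0.141 with a median of 0.104, while the other 79 had 0.094 to 0.164 with a median of 0.125. In the block both sets spanned nearly the same range, 0.0772 to 0.264 with a median of 0.129 against 0.0754 to 0.289 with a median of 0.143. No label names these sets, and what the codes stand for is not given in the sources used here, so no test was made.

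Libraries with higher levels at the members also had higher levels at the other partly methylated and at the unmethylated dense positions, though not under every setting. Over the 95 libraries, the mean over the members had a Pearson r of 0.43 with the mean over dense positions under 0.05 (adjusted p = 0.00012) and a Spearman rho of 0.417 (adjusted p = 0.00016), by permutation with 4 relations adjusted together. With dense positions over 0.3 and up to 0.7 the r was 0.363 (adjusted p = 0.00072) and the rho 0.39 (adjusted p = 0.00034). With dense positions over 0.7 the r was 0.06 (adjusted p = 0.565) and the rho 0.0625 (adjusted p = 0.549).

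Other settings ended these calls. At a density of at least 24, the r was 0.229 (adjusted p = 0.105, permutation test) with positions under 0.05 and -0.00246 (adjusted p = 0.981) with positions over 0.3 and up to 0.7. With 1.0 kept as deposited, which also changed the members to 11218, the latter was -0.0164 (adjusted p = 0.875). With 1.0 kept and the positions of the main setting, it was 0.348 (adjusted p = 0.00112). That setting was chosen after the data were seen.

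The first of these relations held unevenly over the libraries. Its r was 0.397 without the 2 libraries farthest from the median and ranged from -0.0281 to 0.945 within code prefixes, with 9 of 10 above 0. It was 0.374 in the 79 libraries without A1, A3 or A4 and 0.0521 in the 16 with them. The relation with positions over 0.3 and up to 0.7 was 0.388 without the 2 farthest libraries and 0.197 to 0.694 within prefixes, above 0 in 10 of 10. That with positions over 0.7 was 0.0558 without the 2 farthest and -0.415 to 0.452 within prefixes. The levels behind these relations differed in scale, since the library mean over dense positions under 0.05 ran from 0.00251 to 0.00811 and that over all members from 0.0879 to 0.162. Bisulfite conversion and depth of each library are not given in the files used here, and their part in these relations was not tested.

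Nearby members varied together only in part, and less so with distance. Over pairs of members outside the block, the median Pearson r across the 95 libraries was 0.288 for pairs 2 to 10 bp apart. It fell to 0.178 up to 50 bp, 0.147 up to 100 bp, 0.12 up to 500 bp and 0.0333 up to 5000 bp, each range beginning where the one before ends. In the block the medians were 0.265, 0.217, 0.179, 0.124 and 0.11 over these ranges. Leaving out every 1.0 raised these medians, and far more in the block than elsewhere. Outside the block they became 0.387, 0.262, 0.249, 0.206 and 0.0735, and in the block 0.693, 0.652, 0.616, 0.523 and 0.521. In the block, 66426 pairs lay in the farthest range, and in this setting members more than 500 and up to 5000 bp apart there varied together more closely than members 2 to 10 bp apart did elsewhere. Pairs 1 bp apart, as the cytosines on both strands of a CpG would be listed, had a median r of 0.108 outside the block (0.157 with every 1.0 left out), which was lower than at 2 to 10 bp in both settings. The r of 0.108 covers all 805 pairs of members 1 bp apart outside the block, not only CpG-like ones. Counted separately, 801 CpG-like pairs 1 bp apart had at least 1 member, and 678 of these (84.6%) had both as members. Their mean fractions were close, differing by a median of 0.0132, although the median r was 0.117 where both were members. All these correlations are descriptions over pairs that share libraries, reads and positions.

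Clusters on different chromosomes shared a weak common component. Over 42027 pairs of clusters of 5 or more members that lay on different chromosomes or over 1 Mb apart, the median r was 0.13, with a 5th to 95th percentile of -0.138 to 0.398, and 79.6% of pairs were above 0. For 286 clusters outside the block, the r of the cluster mean with the mean of the members on all other chromosomes had a median of 0.379, with -0.393 as the lowest and 0.77 as the highest, and 268 were above 0. With every 1.0 left out, the first median was 0.18 and the second 0.471, with 260 above 0. The 5 clusters of the block had -0.011 to 0.201. The highest value, 0.77, belonged to the cluster of 43 members on chromosome 2 at 7451213 to 7451683.

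Beyond the block, the clusters with most members were 188 to 482 bp long and stayed low in nearly every library. The cluster of 67 members on chromosome 1 at 60596958 to 60597239 held no other listed position and ran from 0.0485 in the lowest library over 0.134 in the median to 0.271 in the highest. That on chromosome 28 at 15671307 to 15671788, with 62 members, had 0.0592, 0.0966 and 0.198 and an SD of 0.0242, and without the values of 1.0 its highest library had 0.162. The cluster of 62 members on chromosome 38 at 21094135 to 21094359 reached further, with 0.0407, 0.126 and 0.318. None of these 3 had a library over 0.5, and 94, 95 and 91 of the 95 libraries lay from 0.05 to 0.3 in them.

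A cluster of 47 members on chromosome 8 at 10705967 to 10706154 had 0.00851, 0.0992 and 0.199, with 9 libraries under 0.05. The chromosome 2 cluster of 43 members had 0.044, 0.13 and 0.288. Of the 291 clusters of 5 or more members, 172 had every library at or under 0.3, 64 had every library at 0.05 or more, and 16 had at least 1 library over 0.5. With every 1.0 left out these numbers were 208, 61 and 15. A low partial level in most libraries was thus the usual state of a cluster, and clusters that were high in some libraries were few. The rule builds much of this in, since it chose the members by a mean of 0.05 to 0.3 over these same libraries.

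The clusters with the largest SD across libraries showed the other state. On chromosome 28 at 3528117 to 3528302, a run of 42 members with no other listed position between them ranged from 0 in the lowest library over 0.188 in the median to 0.914 in the highest, with an SD of 0.247. There 31 libraries were under 0.05, 30 from 0.05 to 0.3, 22 over 0.3 and up to 0.5, and 12 over 0.5. Values of 1.0 made up 3.03% of the values in this cluster, and without them 45 libraries were under 0.05, 18 from 0.05 to 0.3, 20 over 0.3 and up to 0.5, and 12 over 0.5. Its mean of low partial methylation is the average over libraries that were unmethylated and libraries that were mostly methylated, with many between them. The median r between its members was 0.724 (0.936 without the values of 1.0), so the 42 positions moved largely together across libraries.

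The cluster of 24 members on chromosome 9 at 3827585 to 3827733 had its libraries in a different arrangement. It ran from 0.0113 over 0.125 to 0.7, with 13 libraries under 0.05, 66 from 0.05 to 0.3, 5 over 0.3 and up to 0.5, and 11 over 0.5. Most libraries were low there, and few lay between these and the 11 high ones. On chromosome 19 at 2398388 to 2398518, 16 members ran from 0.005 over 0.178 to 0.798, with 33 libraries over 0.3 and up to 0.5 and 5 over 0.5.

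On chromosome 28 at 13810474 to 13810624, 20 members had 0.0215, 0.23 and 0.773, and on chromosome 9 at 372431 to 372528, 11 members had 0.01, 0.214 and 0.589. The highest library was a different one in each of these 5 clusters. Only 2 clusters of 5 or more members had at least 10 libraries over 0.5, the 42-member cluster on chromosome 28 and the 24-member cluster on chromosome 9. DNA sequence variants between dogs were not called here, and their part in these clusters was not tested.

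At the other end, the cluster of 32 members on chromosome 23 at 42516309 to 42516607 ran only from 0.0541 over 0.0959 to 0.156, with an SD of 0.0218 and all 95 libraries from 0.05 to 0.3. Clusters on chromosome 15 at 45032618 to 45032724 (17 members, 0.0267 to 0.161), chromosome 29 at 14258807 to 14259237 (28 members, 0.0489 to 0.188) and chromosome 32 at 30553531 to 30553790 (24 members, 0.0542 to 0.218) had the next smallest SDs beside the 62-member cluster of chromosome 28, at 0.0259, 0.0268 and 0.0269. The median r between members was 0.00875 to 0.0527 in the 5 clusters of smallest SD and 0.717 to 0.898 in the 5 of largest SD. These clusters were ranked by the SD of their mean, which is larger where members move together, so the contrast follows in part from the choice. With every 1.0 left out, the same 5 clusters had the largest SD and 3 of the 5 the smallest. The levels of single members inside a narrow cluster still differed, from 0.0512 to 0.22 in mean fraction on chromosome 23.

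**Figure D4:**
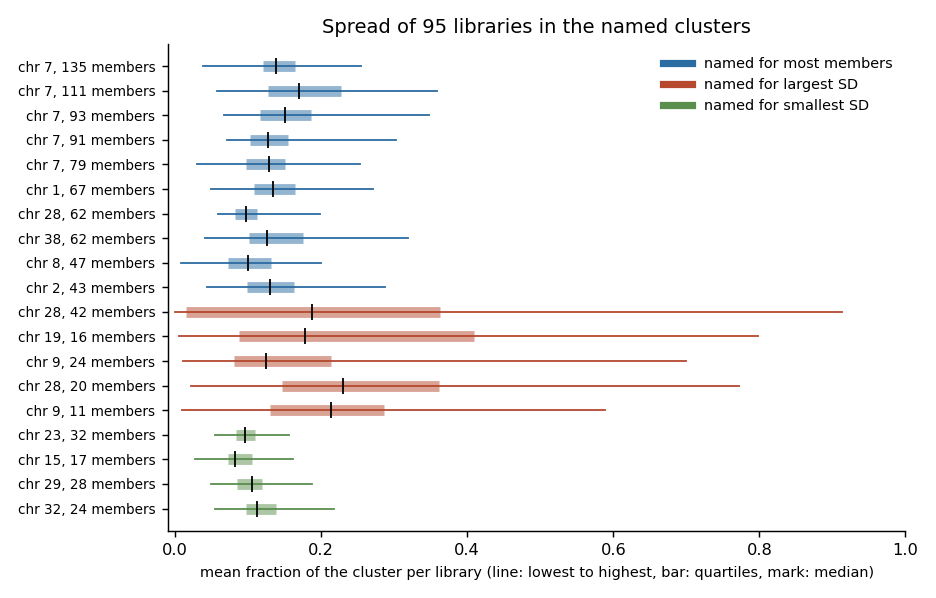
Mean methylation fraction of each named cluster per library (x axis), with a line from the lowest to the highest of 95 libraries, a bar between the quartiles and a mark at the median. The 10 clusters with most members are blue, the 5 with the largest SD red and the others with the smallest SD green; the chromosome 28 cluster of 62 members, which belongs to both the first and the last set, is drawn once in blue, and only red lines pass 0.5.

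Among loci of several clusters, one on chromosome 35 from 10170183 to 10181296 held 49 members in 6 clusters and ran from 0.0792 over 0.169 to 0.276 across libraries. One on chromosome 12 from 1499545 to 1500154 held 48 members in 2 clusters and was wider, from 0.034 over 0.155 to 0.549.

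The repeat libraries, which the rule did not use, gave the same range of levels at most members. The table of repeats holds 7 libraries, 6 of them with codes that the main table does not hold. It listed 3740 of the 4781 members (78.2%), which were 87.6% of those outside the block and 0 of the block, since its last position on chromosome 7 was 80937964. Over these 6 libraries, the median member mean was 0.102, against 0.103 for the same members in the main table, with a median difference of -0.00509. Of the 3740 members, 82.9% had a repeat mean from 0.05 to 0.3, 13.4% were under it and 3.69% over it. Of the dense positions under 0.05, 98.9% stayed under 0.05. By the sample titles, the repeats are second captures of dogs that also have a first capture, so they are not an independent set of animals.

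Libraries with the same number in both kinds of code had nearly the same level over the members. The 6 repeat libraries, coded CHYB6, each carry a number that a library coded Pilot also carries. For 5 numbers that Pilot library is in the main table, and for number 1 it is the remaining library of the repeat table. Setting them side by side by number was chosen after the data were seen. No label says that equal numbers mean the same dog. Over 3738 members with a value in all repeat libraries, the means of the Pilot and repeat library were 0.1186 and 0.1174 for number 1, 0.1096 and 0.1083 for number 5, and 0.1376 and 0.1413 for number 6. They were 0.1233 and 0.1244 for number 7, 0.1327 and 0.1352 for number 8, and 0.1137 and 0.1188 for number 10. The largest difference was 0.00507, whereas the 6 Pilot libraries spanned 0.1096 to 0.1376. The Pearson r over the 6 numbers was 0.981 (exact permutation p = 0.00278) and the Spearman rho 0.943 (exact permutation p = 0.0167), both two-sided, and r was 0.896 without the 2 farthest from the median.

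The pattern over members was shared less closely than the mean. After the mean of each member was taken out, the r across 3738 members between libraries of the same number was 0.433, 0.441, 0.259, 0.168, 0.335 and 0.122 for numbers 1, 5, 6, 7, 8 and 10. The highest r of the same repeat library with any of 95 other libraries was 0.162, 0.339, 0.123, 0.186, 0.321 and 0.0951. The same number therefore gave the highest r for 5 of 6, with number 7 as the exception. With every 1.0 left out the r of the same number was 0.425, 0.713, 0.288, 0.156, 0.436 and 0.371, and number 7 stayed below its highest other library, at 0.258. Over the 265 clusters measured in both tables, the r of the same number was higher, at 0.621, 0.658, 0.557, 0.367, 0.585 and 0.5, against a highest of 0.354, 0.478, 0.26, 0.366, 0.395 and 0.254 among other libraries. For number 7 these 2 values nearly coincide, and with every 1.0 left out they were 0.348 and 0.481, so that number 7 was the exception there as well. These are descriptions across positions, which are not independent.

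Of the 5 clusters that varied most between libraries, some kept their level between libraries of the same number better than others. In the 42-member cluster of chromosome 28, the Pilot libraries had 0, 0.767, 0.265, 0.0157, 0.529 and 0.407 for numbers 1, 5, 6, 7, 8 and 10. The repeat libraries had 0.00119, 0.728, 0.288, 0.0345, 0.644 and 0.191. The 2 libraries near 0 and the 2 over 0.5 were thus the same numbers in both, and number 10 differed most, by 0.217.

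In the 24-member cluster of chromosome 9, no difference exceeded 0.0475, and number 5 was the highest in both, at 0.364 and 0.32. In the 16-member cluster of chromosome 19, the other numbers kept their order, but number 7 had 0.17 in the Pilot library and 0.543 in the repeat. The 20-member cluster of chromosome 28 differed by at most 0.11, with 0.161 and 0.051 for number 1. The 11-member cluster of chromosome 9, over 8 positions found in both tables, did not keep the order of the numbers. Its Pilot libraries ran from 0.166 to 0.385, and number 7 had 0.281 in the Pilot library and 0.459 in the repeat. In the narrow cluster of chromosome 23, the Pilot libraries had 0.0641 to 0.114 and the repeats 0.0791 to 0.12, with a largest difference of 0.0284 between libraries of the same number, while the 95 libraries there ran from 0.0541 to 0.156.

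**Figure D5:**
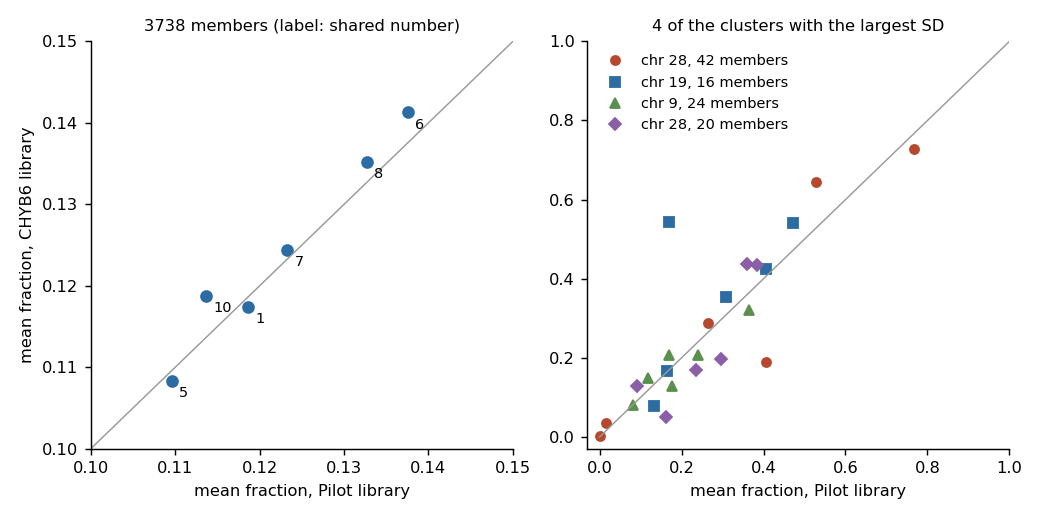
Mean methylation fraction of each repeat library coded CHYB6 (y axis) against the Pilot library of the same number (x axis), over 3738 members (left, points labelled by number) and in 4 of the clusters with the largest SD (right, 6 points each). The grey line marks equal values; on the left no point is further than 0.00507 from it in height, and on the right most points lie near it, with number 7 of the chromosome 19 cluster far above.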

How the data were processed

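The authors deposited tables of methylation fractions, 1 for each cytosine and library, with neither counts nor coverage. Capture followed Roche SeqCap Epi, per the labels' protocols. Tools and build in the submitters' processing notes are Bismark 0.14.3, Bowtie2 2.1.0, Trim Galore and CanFam3.1, listed there with no role for each. The main table (95 libraries, 304191 positions) gave the members, and the repeat table (7 libraries, 1812277 positions) their levels in other libraries. All 102 library codes match no label, so no library was given a group. The table mapped to human probes was not used here, as its probes carry no dog position.

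Where the median of a position was under 0.05, its values of 1.0 (within 1e-06) were replaced by 0.01. Clusters joined members over gaps of up to 100 bp and loci over gaps of up to 5000 bp. Named clusters were the 10 with most members and, among those of 10 or more members, the 5 with the largest and the 5 with the smallest SD across libraries. The members, lists and tests were chosen with earlier results of these data known. Because the rule used these fractions, levels are given with no test. Relations across libraries were tested by 100000 permutations, two-sided, with Benjamini-Hochberg adjustment over 4 relations, where the smallest possible p is 1e-05. One of the 4, block against other members, was added after the data were seen. Planned matches to promoters and gene lists were not run, since no promoter sequence was at hand. On a simulated table of 41468 positions the rule found 100% of 846 members, which checks only that the code applied the rule to simulated levels. It gives no error rate for the deposited positions, whose depth is unknown and whose means run continuously through the limits. Figures were drawn with Matplotlib 3.10.9, and SciPy 1.17.1 and NumPy 2.4.6 were run under Python 3.11.15.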

Additional observations from a re-analysis of the deposited data

How the results depend on the processing

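The number of members depends on how values of 1.0 are read and on the density limit. It also fell, to 3447 with 204 clusters of 5 or more, when positions 1 bp apart were counted once. That change was within 1.5 times and counted as unchanged below. With 1.0 kept as deposited there were 11218 members and 684 clusters of 5 or more, the median library mean was 0.0774, and the relation with dense positions over 0.3 and up to 0.7 had an r of -0.0164 (permutation test, adjusted p = 0.875) and that with positions over 0.7 an r of -0.262 (adjusted p = 0.021). With 1.0 kept but the positions of the main setting, these r were 0.348 (permutation test, adjusted p = 0.00112) and 0.0412 (adjusted p = 0.692). Both changes thus went with the new choice of positions. A density of at least 12 gave 8455 members and 602 clusters. A density of at least 24 gave 1700 members and 75 clusters, with an r of 0.229 (adjusted p = 0.105) for positions under 0.05 and -0.00246 for positions over 0.3 and up to 0.7. A window of 50 bp with at least 8 positions gave 8848 members and 675 clusters. With a density of at least 24 and the chromosome 7 block left out, a setting chosen after the data were seen, there were 1222 members and 70 clusters, the r for positions over 0.3 and up to 0.7 was -0.00606 and that for positions under 0.05 was 0.371 (adjusted p = 0.00069). The call for positions under 0.05 at that density thus depended on the block. The cause of the other changed relations was not tested. Of the other values recomputed, 75 from alternatives listed at the outset and 47 from alternatives added later counted as unchanged. A relation had to keep its side of the threshold, and its direction only where the main setting passed it. Relations that had not passed could change sign, as that with positions over 0.7 did at a density of at least 12 (r of -0.063). Levels moved by less than 1 SD across libraries, and counts by at most 1.5 times. Some of the 47 could not move. With libraries coded A1, A3 or A4 left out, or 1.0 kept as deposited in the main members, the members were fixed. Their number, share, median level and clusters were then the same by construction. Leaving out every 1.0 moved the range over the block from 3.83-fold to 6.67-fold and the libraries under 0.1 there from 5 to 28, and its lowest library mean from 0.0754 to 0.0433. Left out in turn were the library with most filled-in values (L1_A7) and that with most values of 1.0 at all positions with a median under 0.05 (L4_A7), which is not the one with most at the members. Alternatives of the promoter matching were not run. No paired analysis was possible because the library codes match no label, and the same-number comparison rests on the codes alone. Depth is unknown, so fractions near 0.05 carry an error that cannot be stated.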

Other observations

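A small set of members was above 0 in every library, 281 of the 4781 (5.88%), and 6.23% of members had only other members listed within 100 bp. Across the members found in the repeat table, the mean over the repeat libraries and the mean over the main table had an r of 0.83, given as a description since positions are not independent.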
